A study of Rattus norvegicus with 90 samples.

Results

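The 60 transcripts described here are the most abundant among those that rat liver held at high levels and rat kidney and heart did not. They were chosen from 40071 Ensembl transcripts by their levels in the vehicle libraries of both collection times, with library MS-1 left out. Levels were taken in TPM, the usual length-corrected unit of transcript abundance, which divides the reads of a transcript by its length and gives every library the same total. A transcript was kept where its liver mean was at least 20 times its kidney mean and its heart mean, each with 0.1 TPM added. These ratios were met by 458 transcripts, and the 60 with the highest liver mean were taken. The vehicle levels in the 3 organs are therefore a description and carry no test. The files name transcripts by identifier and do not pair them with genes, so the members are given by identifier, and neither their products nor the defining markers of each organ were examined.

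RNA-seq was performed on liver, kidney, and heart of male Sprague-Dawley rats that were 10 weeks old when purchased. The rats received thioacetamide by intraperitoneal injection at a low dose of 25 mg/kg or a high dose of 100 mg/kg, or saline vehicle at 3 ml/kg, and organs were taken 8 or 24 h later. Each of the 18 groups, formed by organ, dose, and time, had 5 libraries, and the study's methods state that the organs came from the same rats. All rats, vehicle-treated ones included, went without food for the last 8 h. By the study's methods, the 8 h rats were injected in the morning and had no food afterwards. The 24 h rats were injected in the afternoon and had food until those last 8 h. Hour of injection and feeding after it therefore cannot be told apart from time after exposure. The labels name no transgene or deletion in any group.

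Hepatocytes, the main cells of the liver, make most of the proteins of blood plasma and hold the enzymes of bile acid synthesis, the urea cycle, and drug oxidation. The messages for such tasks are few in kind and very abundant, and many are hardly made in other organs. Thioacetamide is itself oxidized in hepatocytes, mainly those near the central vein, to products that bind protein and lipid there. The level of liver-restricted messages is commonly read as a measure of how much hepatocyte material, in what working state, a tissue sample holds.

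The estimated counts per library summed to between 16641408 and 36303248 in the liver, 16919321 and 31562820 in the kidney, and 16332764 and 31570431 in the heart. In 6 liver libraries (MS-14, MS-15, MS-16, MS-18, MS-19, and MS-21), the unannotated genomic intervals that the files also list held 18.6 to 28.9% of the counts, against at most 14.8% in the other liver libraries. Libraries MS-1, labelled 24 h vehicle, and MS-9, labelled 8 h low dose, differed by at most 1 count for 59 of the 60 members and for 99.96% of 15797 transcripts. Their estimated counts summed to 17747393 in MS-1 and 17747394 in MS-9. This is far closer than sampling noise would leave separate libraries, so they were taken as the same data under different labels and counted once. The labels do not tell which is right, so it is not known whether MS-9 is an 8 h low-dose liver. MS-1 was left out and MS-9 was kept, which left 4 vehicle livers at 24 h. In the kidney, library MS-37 of the 24 h low-dose group stood apart in the members themselves, and its values are given with the kidney results.

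The liver vehicle means of the members spanned from 55923 TPM down to 1019 TPM, with a median of 2904 TPM. ENSRNOT00000003921 was the most abundant, at 55923 ± 18147 TPM (SD, n = 9), 3.26 times the level of the second, ENSRNOT00000041891, at 17138 ± 3505 TPM. It alone held 18.1% of the summed mean of the members. The first 6 members held 42.2% of that sum, the first 10 held 54.9%, and the last 30 held 15.5%. A few transcripts therefore set most of any summed level of this set.

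Behind these came ENSRNOT00000045628 at 14875 ± 3324 TPM, ENSRNOT00000020197 at 14569 ± 5415 TPM, ENSRNOT00000012577 at 13939 ± 2660 TPM, and ENSRNOT00000022113 at 13815 ± 4222 TPM. The first 6 members were also the 6 most abundant of all transcripts in the vehicle livers. ENSRNOT00000046169 at 11398 ± 2711 TPM, ENSRNOT00000058422 at 10254 ± 3353 TPM, ENSRNOT00000042860 at 9263 ± 2147 TPM, and ENSRNOT00000046857 at 8468 ± 2716 TPM completed the first 10. The first member exceeded the second in 9 of 9 libraries, and the second exceeded the third in 8 of 9. From the third to the sixth, each member exceeded the next in only 5, 4, and 3 of 9 libraries, so their order did not hold beyond the spread between libraries. The seventh to the tenth each exceeded the next in 7 of 9 libraries, with mean differences smaller than the SD of those differences.

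The spread between vehicle livers differed widely among members. The coefficient of variation over the 9 libraries had a median of 29.6% and ran from 17.7 to 112%. The members were 87 to 5188 bases long, with a median of 1260 bases, and the TPM of the shortest rests on an effective length of 12.5 bases. Estimated counts were fractional in at least 1 library for 39 members, as happens where reads are divided between similar transcripts, and whole within 0.01 for 21 members. The levels of those 39 are uncertain to the extent that the division was.

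The limits of the set fell among close values. The last 2 members, ENSRNOT00000047139 and ENSRNOT00000024622, had liver means of 1021 and 1019 TPM, and the next transcripts below, ENSRNOT00000015336 and ENSRNOT00000054742, had 982 and 968 TPM. The lowest ratio of liver to another organ inside the set was 22.8, and the highest among equally abundant transcripts outside it was 18.2. Of the 127 transcripts at least as abundant as the last member, 67 did not meet the ratios.

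In the liver, the summed level of the members was lowest 24 h after the high dose. The members held 24.1, 22.1, 23.9, 22.9, and 20.6% of all TPM in the 5 high-dose livers at 24 h. They held 27.4, 28.9, 28.03, 29.1, and 28.6% in the low-dose livers. Every high-dose library thus lay below every low-dose library. The 24 h vehicle livers held 33.4, 24.2, 34.3, and 22.9%, and the 2 low ones, MS-19 and MS-21, were those with over 15% of counts in intervals, so the vehicle and high-dose groups overlapped on this scale. The means were 28.7 ± 5.98% (SD, n = 4) with vehicle, 28.4 ± 0.693% (n = 5) with the low dose, and 22.7 ± 1.43% (n = 5) with the high dose. Without MS-19 and MS-21, the vehicle mean was 33.8% (n = 2). As a share of estimated counts in place of TPM, the 24 h vehicle livers held 35.2, 30.5, 37.4, and 27.5%, the low-dose livers 29.4 to 31.04%, and the high-dose livers 22.5 to 26.9%, so vehicle and high dose did not overlap on that scale.

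At 8 h the groups overlapped in TPM. The vehicle livers held 22.2 to 37.5% with a mean of 32.6 ± 5.99%, the low-dose livers 22.6 to 33.4% with a mean of 28.8 ± 5.201%, and the high-dose livers 19.6 to 37.8% with a mean of 31.6 ± 7.15% (SD, n = 5 each). In each group the lowest library was 1 with over 15% of its counts in intervals (MS-16, MS-15, and MS-14). Leaving those libraries and MS-18 out, the means were 35.3, 32.5, and 34.6%.

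The folds and tests below use a different scale, CPM, in which each count is divided by the size of its library after edgeR's trimmed mean of M values (TMM) factor, which sets the bulk of transcripts equal between libraries. On it the 24 h groups separated, with summed levels of 443509 to 564479 CPM in vehicle livers, 276300 to 292671 CPM after the low dose, and 161075 to 258482 CPM after the high dose. The means of the low and high dose were 58.04 and 41.2% of the vehicle mean. At 8 h the vehicle livers had 423433 to 556720 CPM, the low-dose livers 327219 to 360287 CPM, and the high-dose livers 362644 to 453798 CPM, so the low-dose group lay below both others and the high-dose group overlapped with vehicle. Their means were 72.1 and 84.8% of the vehicle mean. MS-9, at 340767 CPM, lay within the range of the other 8 h low-dose livers. MS-1, at 340757 CPM, lay below all other 24 h vehicle livers. Which label the data shared by MS-1 and MS-9 belong to was not tested. The TMM factors moved with the groups, from 0.723 to 0.859 in 24 h vehicle livers to 1.22 to 1.55 in 24 h high-dose livers. Folds were therefore also computed on 2 scales without TMM, edgeR with library size alone and limma on log2(TPM + 1). The remaining transcripts rose as a share of the reads at the same time. A lower amount per cell, a smaller share of hepatocytes, and a larger amount of other RNA cannot be told apart in these bulk samples.

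**Figure D1:**
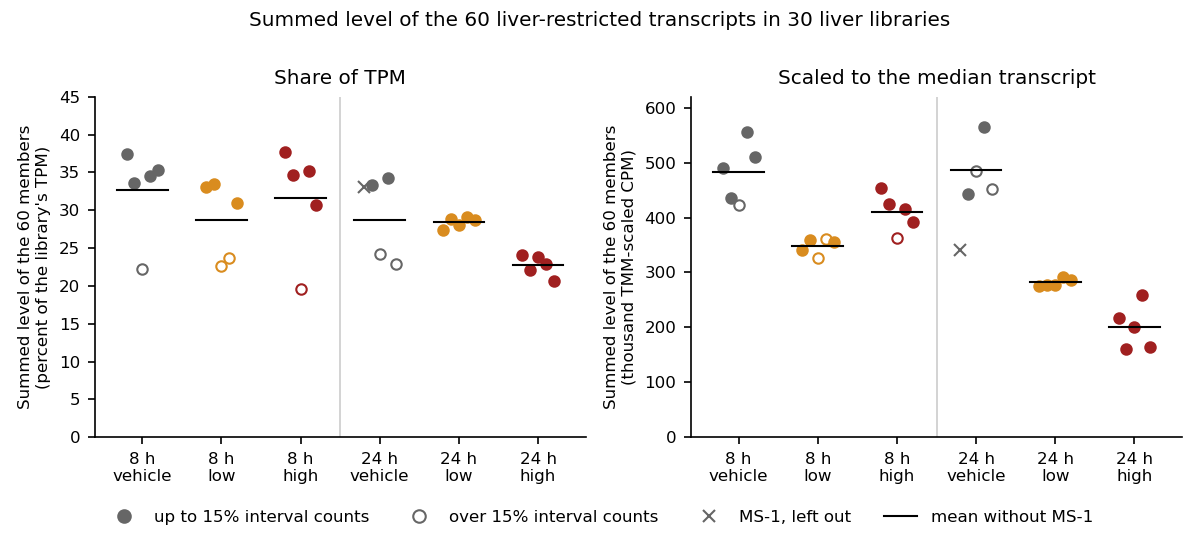
Each point is 1 of 30 liver libraries, by time and dose, with the summed level of the 60 members as a percent of the library's TPM (left) and in TMM-scaled CPM (right), open where intervals hold over 15% of counts, a cross for MS-1, and a line at the group mean without MS-1. In TPM the 24 h high-dose livers at 20.6 to 24.1% lie below the 24 h low-dose livers at 27.4 to 29.1% but overlap with the open vehicle points, and in scaled CPM the 24 h groups separate.

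In livers taken 24 h after 100 mg/kg, 50 of the 60 members fell and none rose on the TMM scale, although 4 and 5 rose on the scales without TMM. A transcript was called where edgeR's quasi-likelihood test gave an adjusted p of at most 0.01 over all tested transcripts and the fold was at least 1.82. Among all transcripts tested, 13.6% were called lower and 13.2% higher in this comparison on the TMM scale. Of the same 17137 transcripts, 7268 were called higher with library size alone and 7105 with limma. The median log2 fold change of the members was -1.64, with a range from -4.54 to 0.49, against a median of 0.06 over all transcripts outside the liver-restricted ones. In 51 members every high-dose library lay below every vehicle library, which held for 22.6% of all transcripts. The log2 fold change was at or under -1 in 51 members and at or under -2 in 13.

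The most abundant member was among those that fell. ENSRNOT00000003921 was at 119385, 139083, 156950, and 119116 CPM in the 24 h vehicle livers and at 47035, 44943, 47401, 53770, and 45922 CPM after the high dose. The groups did not overlap, and the log2 fold change was -1.53 ± 0.17 (SE, adjusted p = 6.42e-05, edgeR). It kept first place among the members in all 6 liver groups. In TPM its 24 h means were 53933 ± 10914 with vehicle (SD, n = 4), 50720 ± 5263 with the low dose, and 39222 ± 3263 with the high dose (n = 5 each), a far smaller difference than in scaled CPM.

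The largest fall belonged to ENSRNOT00000014180, the 49th member by level. Its 24 h vehicle livers had 1753, 2842, 3290, and 1788 CPM, and its high-dose livers had 121, 132, 138, 45.2, and 103.2 CPM. All high-dose values lay far below the lowest vehicle value, and the log2 fold change was -4.54 ± 0.36 (SE, adjusted p = 1.1e-05, edgeR). After the low dose it had 292, 193, 128, 442, and 319 CPM, also below all vehicle values, with a log2 fold change of -3.14 ± 0.36 (adjusted p = 0.000265, edgeR). At 8 h it was not called, with 1623 to 3326 CPM in vehicle livers, 627 to 1996 CPM after the low dose, and 1264 to 2118 CPM after the high dose, so the groups overlapped.

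ENSRNOT00000088853 showed the next largest fall after the high dose. Its vehicle livers at 24 h had 1481, 2088, 2541, and 1189 CPM, and its high-dose livers 237, 333, 247, 273, and 393 CPM. The groups were apart, with a log2 fold change of -2.67 ± 0.25 (SE, adjusted p = 2.43e-05, edgeR). After the low dose it had 281, 446, 320, 988, and 455 CPM, with MS-22 the high one, and a log2 fold change of -1.88 ± 0.37 (adjusted p = 0.00439, edgeR).

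More and less abundant members had similar medians. The median log2 fold change at 24 h after the high dose was -1.58 in the first 30 members by level, 24 of them called, and -1.76 in the last 30, 26 of them called. Of the first 10, only ENSRNOT00000020197 was not called, at -1.05. The 398 liver-restricted transcripts below the 60 had a median of -1.70, and 74.4% of those tested were called against 83.3% of the members. The members with fractional counts had a median of -1.73 with 34 of 39 called, and those with whole counts -1.59 with 16 of 21 called.

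After the low dose, 31 of the 60 members fell at 24 h and none rose on the TMM scale, although limma on log2(TPM + 1) called 4 higher and 6 lower. On the TMM scale 4.15% of all transcripts were called lower and 4.89% higher. Limma called 118 of 16754 transcripts lower and 4140 higher. The median log2 fold change was -0.90, with a range from -3.14 to 0.29. The liver-restricted transcripts below the 60 had a median of -0.81, and 34% of those tested were called lower, against 51.7% of the members. In 47 members every low-dose library lay below every vehicle library, against 14.2% of all transcripts. With MS-1 put back among the vehicle libraries, 16 members were called, against 1.91% of all transcripts. The second member, ENSRNOT00000041891, had 22403, 25364, 25519, and 22734 CPM in vehicle livers and 11906, 11239, 10967, 10927, and 10128 CPM in low-dose livers. The values within each group were close to each other and the groups far apart, with a log2 fold change of -1.13 ± 0.09 (SE, adjusted p = 7.38e-05, edgeR). After the high dose it had 8170, 6745, 6972, 8945, and 6687 CPM and a log2 fold change of -1.73 ± 0.15 (adjusted p = 1.76e-05, edgeR).

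**Figure D2:**
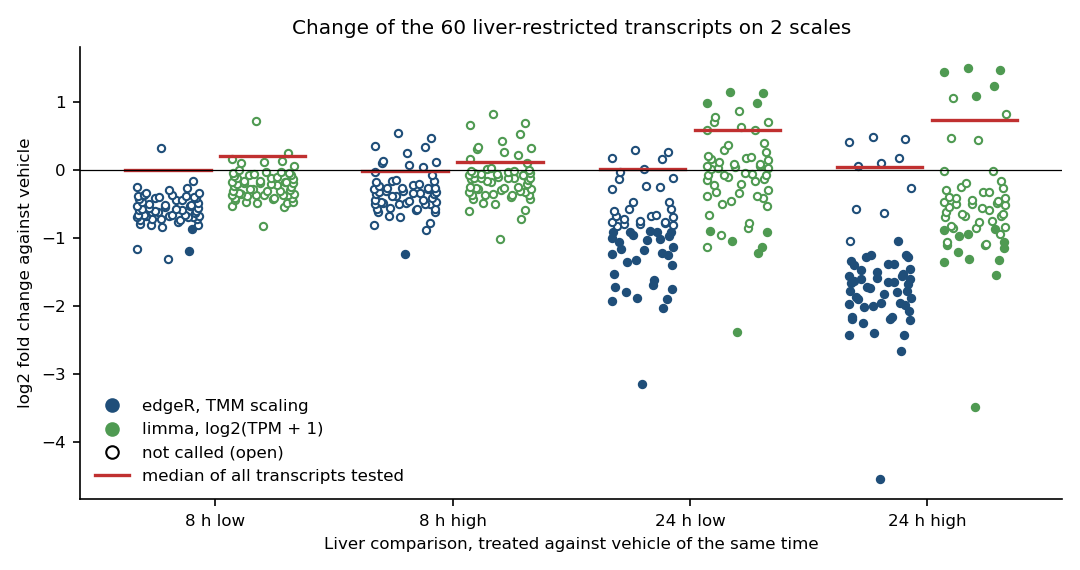
Each point is the log2 fold change of 1 of the 60 members against vehicle of the same time in the liver, from edgeR with TMM scaling or limma on log2(TPM + 1), filled where called, with a line at the median of all transcripts tested. At 24 h after the high dose the members' median is -1.64 on the TMM scale and -0.58 with limma, where the median of all transcripts is 0.74. With limma 5 members are called higher, against 7105 of 17137 transcripts.

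At 8 h few members passed the test. After the low dose 2 of 60 were called, both lower, against 4.1% of all transcripts, although the median log2 fold change was -0.59 and 59 members lay below 0. With library size alone and with limma on log2(TPM + 1) that median was -0.25 and -0.21, with 54 and 53 members below 0. In 20 members the low-dose and vehicle libraries did not overlap with the low dose below, against 12.4% of all transcripts. After the high dose 1 of 60 was called, lower, against 7.75%, with a median of -0.34, 50 members below 0, and 9 without overlap, against 16.6%. On the scales without TMM its median was -0.18 and -0.13, with 47 and 46 members below 0. The members' shares called at 8 h, 3.33 and 1.67%, were not above those of all transcripts, and they compare with 17.9 and 21.6% of the less abundant liver-restricted transcripts, whose medians were -0.63 and -0.56. None of these shares was tested against another.

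The members called at 8 h after the low dose were ENSRNOT00000012293 and ENSRNOT00000026121. ENSRNOT00000012293 had 1007, 1229, 1188, 1126, and 2614 CPM in vehicle livers and 511, 943, 570, 653, and 460 CPM after the low dose. The groups were apart by a small margin, MS-29 was the high vehicle library, and the log2 fold change was -1.19 ± 0.28 (SE, adjusted p = 0.00789, edgeR). ENSRNOT00000026121 had 2072, 2556, 1916, 3293, and 2673 CPM in vehicle livers and 1400, 1500, 1383, 1436, and 1114 CPM after the low dose. The low-dose values lay close together below all vehicle values, with a log2 fold change of -0.87 ± 0.15 (adjusted p = 0.00157, edgeR).

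Both calls depended on single libraries. The count of 2 became 0 without MS-15 or MS-28, 1 without MS-9, MS-13, MS-18, or MS-94, 4 without MS-12, and 6 without MS-16. After the high dose at 8 h, the count of 1 became 2 without MS-10 and 3 without MS-16.

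ENSRNOT00000002680 was the member called at 8 h after the high dose. Its vehicle livers had 1598, 1878, 1151, 1626, and 2485 CPM and its high-dose livers 724, 808, 713, 689, and 703 CPM. The high-dose values were almost alike and all below vehicle, with a log2 fold change of -1.23 ± 0.17 (SE, adjusted p = 0.000204, edgeR). It also fell at 24 h, by 1.33 after the low dose and by 2.21 after the high dose on the log2 scale, and it was the only member to pass the test in those 3 comparisons.

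Over the 4 comparisons with vehicle, 18 members fell only at 24 h after the high dose and 29 fell at 24 h after both doses. ENSRNOT00000002680, ENSRNOT00000012293, and ENSRNOT00000026121 fell at 24 h after the high dose and also at 8 h, and 10 members passed in none. The 4 comparisons share vehicle libraries within a time, so these counts are not independent of each other. The vehicle libraries also chose the members, so a transcript that read high in them by chance could have entered the set.

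The direct comparison of the high with the low dose uses none of the libraries that chose the members. At 24 h, 8 members were lower after the high dose than after the low dose and none was called higher, against 3.84% of all transcripts called lower and 2.76% higher. The median log2 difference was -0.65 (-0.36 and -0.41 on the scales without TMM), 54 members lay below 0 (46 on all 3 scales), and in 35 every high-dose library lay below every low-dose library, against 11.4% of all transcripts. The liver-restricted transcripts below the 60 had a median of -0.87, and 29.7% of those tested were called lower, against 13.3% of the members. These shares were not tested against each other. At an adjusted p of at most 0.01 with no limit on the fold, 27 members passed, all lower, against 1532 of 17101 transcripts passing as lower. The count of 8 became 3 without MS-7, 4 without MS-26, 5 without MS-2 or MS-22, and 15 without MS-91.

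The largest of these differences was that of ENSRNOT00000008840. It had 1647, 1473, 1737, 1631, and 1740 CPM after the low dose and 778, 239, 870, 706, and 302 CPM after the high dose. MS-6 and MS-26 were the lowest, the groups did not overlap, and the log2 difference was -1.52 ± 0.33 (SE, adjusted p = 0.00588, edgeR). The call was lost when MS-2, MS-7, MS-22, MS-23, or MS-26 was left out. Against vehicle, with 2300, 2234, 2454, and 2052 CPM, it fell by 2.02 after the high dose (adjusted p = 0.00106, edgeR), while the low-dose value of -0.47 did not reach the fold limit and was above 0 on scales without TMM.

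ENSRNOT00000081864 had the second largest difference between the doses. It had 898, 776, 1153, 1125, and 1029 CPM after the low dose and 392, 278, 429, 564, and 313 CPM after the high dose, groups that did not overlap. The log2 difference was -1.34 ± 0.19 (SE, adjusted p = 0.00147, edgeR). Its vehicle livers had 1876, 1987, 2232, and 1993 CPM, so the 3 groups stood in the order of dose. ENSRNOT00000026121 was also lower after the high dose than after the low dose at 24 h, at 774, 453, 1019, 917, and 448 CPM against 1802, 1528, 2320, 1737, and 1523 CPM, by -1.31 ± 0.24 (adjusted p = 0.00326, edgeR).

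At 8 h the doses stood the other way round in most members, without passing the test. edgeR called 0 of 60 members between the high and the low dose, against 2.4% of all transcripts, with 9 at an unadjusted p under 0.05, and DESeq2 called 1. The median log2 difference was 0.18 (0.02 and 0.07 on the scales without TMM), 51 members lay above 0, and 2 were without overlap with the high dose above, against 5.65% of all transcripts. Between vehicle livers at 24 and 8 h edgeR also called 0 members, against 0% of all transcripts, with 3 at an unadjusted p under 0.05 and 0 by DESeq2, and the median difference was -0.01 (-0.03 and -0.20 on the scales without TMM).

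**Figure D3:**
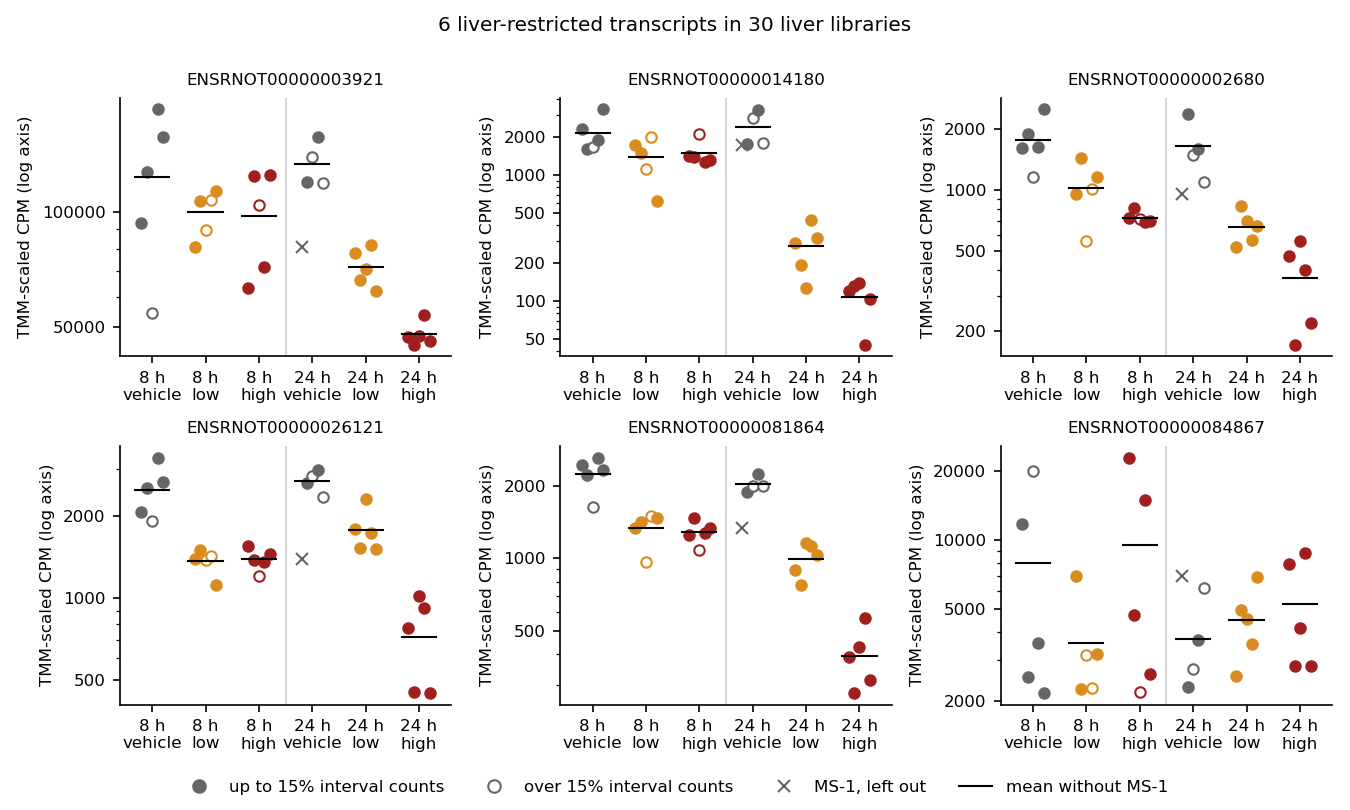
Each panel gives 1 of 6 members in 30 liver libraries by time and dose, in TMM-scaled CPM on a log axis, open where intervals hold over 15% of counts, a cross for MS-1, and a line at the group mean without MS-1. ENSRNOT00000014180 drops at 24 h from 1753 to 3290 CPM with vehicle to 45.2 to 138 CPM after the high dose, while ENSRNOT00000084867 spreads widely within groups, from 2170 to 19943 CPM in the 8 h vehicle livers.

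The effect of the high dose differed between 24 and 8 h, times that also differed in the hour of injection and in feeding after it. The interaction test called 32 members, all with a lower log2 fold change at 24 h than at 8 h, against 5.43% of all transcripts called in that direction, with a median difference of -1.14 (-0.54 and -0.36 on the scales without TMM) and 55 members below 0. The liver-restricted transcripts below the 60 had a median difference of -0.93, and 32.1% of those tested were called in that direction, against 53.3% of the members. The count of members was 17 with library size alone, 2 with limma on log2(TPM + 1), and 20 without the libraries with over 15% of counts in intervals. Called lower in those fits were 391 and 208 of 18398 transcripts, and 597 of 19272. ENSRNOT00000014180 differed most, by -3.94 ± 0.41 (SE, adjusted p = 9.76e-06, edgeR). ENSRNOT00000081488 was next, by -2.29 ± 0.39 (adjusted p = 0.000568, edgeR). The latter had 7785, 15294, 10790, 8120, and 11789 CPM at 8 h after the high dose, within its vehicle range of 4798 to 16967 CPM. At 24 h it had 2887, 3189, 3091, 3448, and 2904 CPM, far below its vehicle livers at 11002, 20089, 18798, and 14932 CPM.

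For the low dose the interaction called 1 member, ENSRNOT00000014180, against 0.491% of all transcripts called in that direction, at -2.48 ± 0.49 (SE, adjusted p = 0.00805, edgeR). That call was kept only when the library left out was MS-4, MS-22, MS-29, or MS-94. The median difference over the members was -0.32 on the TMM scale but 0.17 with limma on log2(TPM + 1).

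**Figure D4:**
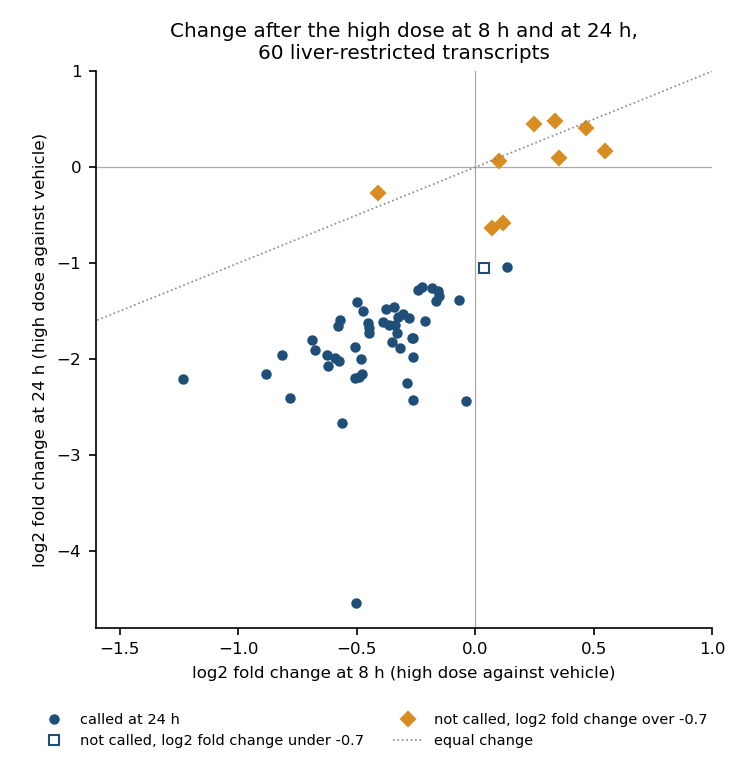
Each point is 1 of the 60 members, with its log2 fold change after the high dose against vehicle at 8 h (x axis) and at 24 h (y axis) on the TMM scale, and a dotted line where both are equal. Of the members 57 lie below that line, and 9 (diamonds) stay over -0.7 at 24 h.

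Between log2 fold changes of -1.04 and -0.63 at 24 h after the high dose no member was found, which left 9 members above that gap and 51 below. The 9 were set apart after their values were seen, so no test is given. They included ENSRNOT00000064091, ENSRNOT00000034521, ENSRNOT00000084867, and ENSRNOT00000074357. Their coefficients of variation over the vehicle livers were 36.2 to 112% with a median of 47.1%, against 17.7 to 51.05% with a median of 26.6% in the other 51. In the 8 h high-dose comparison 8 of the 9 had a fold above 0, against 2 of the 51. In the 8 h low-dose comparison 1 of the 9 did, against 0 of the 51, and the medians were -0.58 and -0.59. Between vehicle livers at 24 and 8 h the medians were -0.49 in the 9 and 0.04 in the 51.

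ENSRNOT00000064091 had the highest value of all members in that comparison. It had 5491, 4366, 6717, and 5799 CPM in 24 h vehicle livers and 8806, 6013, 7184, 13286, and 5218 CPM after the high dose. MS-91 and MS-3 were the high ones, the groups overlapped, and the log2 fold change was 0.49 ± 0.27 (SE, adjusted p = 0.16, edgeR). At 8 h it had 12014, 4828, 12075, 7233, and 5010 CPM with vehicle and 16989, 9659, 5807, 12812, and 6116 CPM after the high dose. MS-10 and MS-16 were the highest vehicle libraries, and MS-8 and MS-17 the highest after the high dose.

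ENSRNOT00000034521 followed nearly the same order of libraries, with 10289 and 9917 CPM in MS-10 and MS-16 against 3988 to 6032 CPM in the other 8 h vehicle livers. Its log2 fold change at 24 h after the high dose was 0.41 ± 0.27 (SE, adjusted p = 0.225, edgeR). ENSRNOT00000084867 spread the most of these, with 11746 and 19943 CPM in MS-10 and MS-16 against 2170 to 3570 CPM in the others, and 22888 and 15028 CPM in MS-8 and MS-17 against 2194 to 4753 CPM. Of the 9 members 7 had MS-10 and MS-16 as their highest vehicle pair and MS-8 and MS-17 as their highest high-dose pair at 8 h, against 7 of the other 51. These 4 libraries were not distinguished by their labels, and what they share was not tested.

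ENSRNOT00000074357 did not share that order. It had 2894, 2682, 2670, and 2339 CPM in 24 h vehicle livers, 2676, 2450, 2821, 2721, and 2833 CPM after the low dose, and 2385, 1829, 2431, 2343, and 2406 CPM after the high dose. The groups overlapped, and the log2 fold change after the high dose was -0.26 ± 0.13 (SE, adjusted p = 0.112, edgeR), but 0.59 when only library size was used for scaling and 0.82 on the log2(TPM + 1) scale with limma.

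The choice of scale moved all of these values. With library size alone, the median of all transcripts shifted to 0.90 at 24 h after the high dose and to 0.55 after the low dose, and with limma on log2(TPM + 1) to 0.74 and 0.59. On those scales the median of the members was -0.78 and -0.58 after the high dose, and -0.36 and -0.05 after the low dose. The members thus lay below the bulk of transcripts on each scale, while the distance from 0 differed. After the high dose at 24 h, 26 members were called lower and 4 higher with library size alone, and 14 lower and 5 higher with limma. Of all 17137 transcripts tested, 786 were called lower and 7268 higher with library size alone, and 531 lower and 7105 higher with limma. The members called higher there were all among the 9 above the gap.

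Calls that held on all 3 scales were fewer. After the high dose at 24 h, 14 members were called lower on each scale and 51 had a fold below 0 on each, and after the low dose 6 and 31. Between the doses at 24 h, 3 members were called lower on each scale. No member called lower on the TMM scale after the low or high dose at 24 h was above 0 on another. ENSRNOT00000014180 was called on each scale at both doses, and ENSRNOT00000003921, at -0.67 and -0.44 after the high dose, was not called on the scales without TMM.

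In the kidney and heart the members were chosen to be low, and their vehicle levels are a description. The kidney mean was 0.0299 to 4.38% of the liver mean, with a median of 0.0531%, and the heart mean 0.00132 to 2.12%, with a median of 0.00614%. Of the 60 members, 35 lay between 0.03 and 0.07% in the kidney and 43 between 0.002 and 0.02%, a wider window, in the heart. The quartiles were 0.0407 and 0.342% in the kidney and 0.00358 and 0.0176% in the heart. A mean of at least 1 TPM was reached by 46 members in kidney and by 14 in heart, and a mean of at least 10 TPM by 16 and 6. ENSRNOT00000041891 was the highest in both, at 568 ± 156 TPM in the kidney and 188 ± 42.1 TPM in the heart (SD, n = 10). Its kidney median of 538 TPM was close to its mean, but in other members few libraries raised the mean. ENSRNOT00000003921 had a kidney mean of 26.3 TPM with a median of 11.4 TPM and a range from 0.977 to 121 TPM. ENSRNOT00000071798 had a kidney mean of 2.62 TPM with a median of 0 TPM.

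In the kidney the 24 h low-dose library MS-37 held 1.57% of its TPM in the members, against 0.102 to 0.164% in the other 4 of its group. It was the highest of its group in 59 of 60 members. Its excess over those 4 was near 1 share of the liver level in most members, with a median of 4.64% of the liver mean, quartiles of 3.89 and 5.38%, and 42 members within 25% of the median. MS-54 of the 24 h high-dose group held 0.319% against 0.126 to 0.172% and was the highest in 54 members. In the heart, MS-83 of the 24 h low-dose group held 0.0885% against 0.0191 to 0.0536% and was the highest in 9 members. The origin of these reads was not tested.

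**Figure D5:**
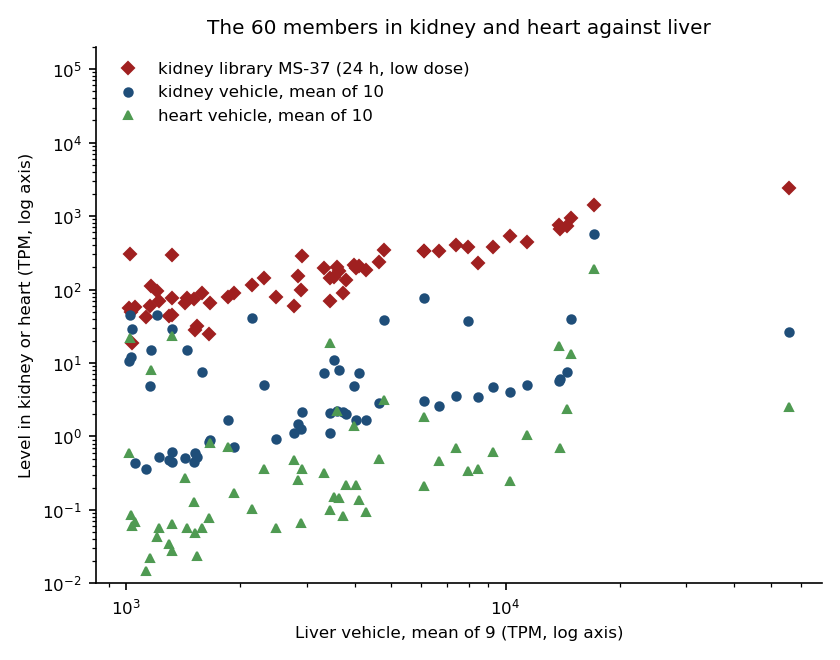
Each member's level in TPM (y axis, log) is set against its mean of 9 liver vehicle libraries in TPM (x axis, log), as the mean of 10 kidney vehicle libraries, the mean of 10 heart vehicle libraries, and the value in kidney library MS-37. The MS-37 values lie above the kidney means for nearly all members and follow the liver level, with a median excess of 4.64% of the liver mean over the rest of its group.

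In the kidney 37 and 46 members had enough counts to be tested at 8 h after the low and high dose, and 50 and 44 at 24 h. edgeR called 0 members at 8 h after either dose and at 24 h after the low dose, against 0.218, 1.49, and 0.0593% of all transcripts. DESeq2 called 0, 0, and 1. At an unadjusted p under 0.05 by edgeR there were 1, 5, and 29 members. The share of all transcripts at that looser limit is not given, so these counts do not compare with the shares called. The 1 became 6 without MS-100, 3 without MS-45 or MS-108, and 2 without MS-46 or MS-58, and the 5 became 12 without MS-100. The 29 became 6 without MS-37, 6 without MS-34 or MS-103, and 5 without MS-50 or MS-51. The same count became 28 without MS-32, 33 without MS-31, 35 without MS-105, 39 without MS-35, and 40 without MS-52. Between 49 and 53 members were tested in these fits. In the heart 18, 19, 20, and 18 members were tested in the same order, and edgeR called 0 in all 4 comparisons, with 2, 2, 11, and 5 at an unadjusted p under 0.05 and 0, 0, 0, and 2 called by DESeq2. At 8 h after the high dose the 2 became 1 without MS-68, MS-73, MS-76, MS-77, or MS-88. At 24 h the 11 of the low dose became 6 without MS-67 and 17 without MS-65, and the 5 of the high dose became 15 without MS-63, 11 without MS-66, 9 without MS-61, and 8 without MS-64. The shares of all heart transcripts called were 0, 0.0171, 0, and 0.922%.

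The exception was ENSRNOT00000084867 in the kidney at 24 h after the high dose, the only member called of 44 tested, against 2.15% of all transcripts called higher. It had 23.6, 14.6, 6.93, 10.4, and 10.8 CPM in vehicle kidneys and 34.6, 51.4, 86.2, 31.8, and 53.6 CPM after the high dose, the highest in MS-54. The groups did not overlap, and the log2 fold change was 1.92 ± 0.36 (SE, adjusted p = 0.00483, edgeR). The call was lost when MS-34, MS-36, MS-50, MS-51, MS-56, or MS-103 was left out. The kidney and heart vehicle libraries were also used to choose the members as low there. A transcript that read low in them by chance could therefore have entered the set.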

How the data were processed

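RNA-seq of liver, kidney, and heart gave 90 libraries, 5 per organ, dose, and time. The authors quantified reads with kallisto 0.42.2 against the Ensembl Rnor_6.0 transcripts and unannotated genomic intervals, with replicates kept separate. The deposited files give estimated counts and TPM per target and library, as the authors' program wrote them, normalized only in the TPM.

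Estimated counts of transcripts were rounded to whole numbers, filtered with filterByExpr, scaled by TMM, and tested with edgeR 4.0.16 (glmQLFit and glmQLFTest, two-sided), organ by organ and time by time, with Benjamini-Hochberg adjustment over all tested transcripts. Calls required an adjusted p of at most 0.01 and a natural-log fold change of at least 0.6, a fold of 1.82. Interactions were called at the same adjusted p with no fold limit. Standard errors are the log2 fold change divided by the square root of the F statistic. Alternatives used DESeq2 1.42.0, limma 3.58.1 on log-transformed TPM with 1 or 0.1 added, library size alone, no filter, no fold limit, 1 fit for each time, the interval share as a covariate, MS-1 kept, and libraries left out. R 4.3.3 and Python 3.11.15 were used.

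The members and lists were chosen with earlier results of these data known. Members were named by a rule: the 10 most abundant, called members with the largest changes in each liver comparison (at most 2 per direction, save 1 already named), the 3 whose largest absolute change over the comparisons with vehicle was smallest, the highest in kidney and heart, those called there, and those at the limits of the set. ENSRNOT00000084867 was described in the liver after its values were seen. P-values measure the spread between libraries of a group. On simulated liver counts, edgeR recovered 96.5% of 200 changed transcripts at 24 h and 98.0% at 8 h for the high dose, and 68.5% for the interaction. For the 24 h high-dose comparison it recovered 94.5% in kidney and 98.0% in heart. The planted changes all exceeded the fold limit and the members' median changes at 8 h, with as many up as down. All transcripts shared the same dispersion, and no library was made to stand apart. The recovery therefore does not tell how often smaller changes would be called.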

Additional observations from a re-analysis of the deposited data

Results flagged for a closer look

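Libraries were examined for values that stood apart from the rest of their group in 96 sets of 5 or 4 libraries, made of the summed level and of 13 members, and 10 stood apart by Dixon's criterion. Chance marks about 1 in 20 such sets.

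In the liver, vehicle library MS-16 at 8 h held 22.2% of TPM in the members, against 33.6 to 37.5% in the others, and it is 1 of the 6 libraries with over 15% of counts in intervals. In the kidney, MS-37 of the 24 h low-dose group held 1.57% against 0.102 to 0.164%, and MS-54 of the 24 h high-dose group held 0.319% against 0.126 to 0.172%. In the heart, MS-73 of the 8 h vehicle group was low, at 0.0256% against 0.0304 to 0.0319%.

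Single members stood apart in 6 liver sets. At 24 h after the high dose, ENSRNOT00000003921 was at 53770 CPM in MS-91 against 44943 to 47401 CPM, and ENSRNOT00000074357 at 1829 CPM in MS-6 against 2343 to 2431 CPM. At 24 h after the low dose, ENSRNOT00000088853 was at 988 CPM in MS-22 against 281 to 455 CPM. At 8 h, ENSRNOT00000084867 was at 6972 CPM in low-dose library MS-9 against 2242 to 3206 CPM, ENSRNOT00000012293 at 2614 CPM in vehicle library MS-29 against 1007 to 1229 CPM, and ENSRNOT00000014180 at 2118 CPM in high-dose library MS-14 against 1264 to 1414 CPM.

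The effect of the dose differed between 24 and 8 h by the interaction test of edgeR for 1 member after the low dose and 32 members after the high dose.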

How the results depend on the processing

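No paired analysis was possible because the groups compared share no replicate numbers. Counts of members called are given against the reported ones. At 8 h after the low dose (2 reported), 1 was called with no filter, without MS-9, or without the libraries over 15% of counts in intervals, 0 with library size alone, limma at either pseudocount, 1 fit for the time, or the interval covariate, 14 with no fold limit, and 0 to 6 with 1 library left out. At 8 h after the high dose (1), limma called 0 at either pseudocount and no fold limit gave 6, with 1 to 3 on leaving out 1 library. At 24 h after the low dose (31), limma called 10 at either pseudocount, library size alone 10, and MS-1 kept 16, with 26 to 32 on leaving out 1 library. At 24 h after the high dose (50), limma called 19 with 1 added and 17 with 0.1 added, and library size alone 30, with 45 to 50. Between doses at 8 h (0), DESeq2 called 1. Between doses at 24 h (8), DESeq2 and 1 fit for the time each called 13, limma 4 and 3, library size alone 3, no fold limit 27, and the interval covariate 20, with 3 to 15. The low-dose interaction (1) gave 8 with DESeq2, 3 with the covariate, and 0 with no filter, limma at either pseudocount, without MS-9, or without the libraries over 15%, with 0 to 2. The high-dose interaction (32) gave 2 and 1 with limma, 17 with library size alone, and 20 without the libraries over 15%, with 24 to 35. In kidneys at 24 h, DESeq2 called 1 for the low dose (0) and 4 for the high dose (1), with 0 to 2 on leaving out 1 library in the latter and in the high-dose kidneys at 8 h. In high-dose hearts at 24 h (0), DESeq2 called 2 and no fold limit gave 1, with 0 to 3. As a share of estimated counts rather than TPM, the mean summed level at 24 h was 32.6% with vehicle, 30.3% with the low dose, and 24.9% with the high dose. ENSRNOT00000074357 turned from -0.26 to 0.82 with limma and 0.59 with library size alone at 24 h after the high dose. Of 541 alternatives for single members, 444 kept direction and call and 85 kept direction only. Other rules of choice kept 55 to 60 members. The cause of each change was not tested, beyond the shift of the median transcript between scales. In kidney and heart, where the members were chosen to be low, 10 to 42 of them had too few counts to be tested.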
